A study of Mus musculus with 32 samples.

Results

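Expression of 10 genes of tissue macrophages and of efferocytosis, the engulfment of dying cells, was followed in 32 RNA sequencing libraries of mouse hematopoietic progenitors. The genes were Gpnmb, Siglec1, Mertk, Fcna, Cd5l, Vcam1, C1qa, C1qb, C1qc and Axl. They were taken by symbol, and all 10 had a row among the 27728 genes of the count table. They had been proposed because they were higher in doxycycline-dosed adults than in untreated wild-type adults, so that contrast is described below without a test. Vcam1 did not follow this statement, since it was lower in every dosed library.

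Macrophages that live in tissues clear dying cells and the nuclei that maturing red cells expel. C1q, assembled from the products of C1qa, C1qb and C1qc, coats dying cells and starts the classical complement pathway. Bridging proteins such as Gas6 and protein S join phosphatidylserine on the dying cell to the receptor tyrosine kinases Axl and Mertk. In bone marrow and fetal liver, macrophages that carry Siglec1 and Vcam1 stand at the centre of erythroblastic islands. Fcna encodes ficolin A, a lectin of the complement system that macrophages secrete, and Cd5l encodes a secreted scavenger-receptor protein of tissue macrophages. Gpnmb encodes a glycoprotein of lysosomes and phagosomes that rises in lipid-loaded or phagocytosing macrophages.

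The sort kept progenitors that carried cKit and lacked Sca1 and markers of mature lineages. Fetal cells came from E14.5 liver, and adult cells from bone marrow. The 5 fetal groups were labelled untreated. They were a flox control, U2af1(flox/flox) without Cre (3 libraries), a heterozygous deletion, Vav1-Cre/U2af1(wt/flox) (3 libraries), a homozygous deletion, Vav1-Cre/U2af1(flox/flox) (3 libraries), Vav1-Cre only (2 libraries), and fetal S34F, Vav1-Cre/U2af1(wt/S34F) (4 libraries). Vav1-Cre is driven by a promoter that is active throughout blood cells, and deletion in macrophages was not measured here. The flox control, both deletions and 1 Vav1-Cre library were labelled batch A, while the other Vav1-Cre library and the S34F libraries were labelled batch B. The 3 dosed adult groups carried Mx1-Cre and rTA, the transgene tgU2AF1(WT) and the alleles U2af1(flox/S34F), and had a course of injected pIpC, a double-stranded RNA mimic that induces interferon and with it Mx1-Cre. Through doxycycline in their chow, which induces that transgene, they received 10000 ppm (4 libraries), 2500 ppm (6 libraries) or 1250 ppm (4 libraries). The untreated adults carried the same Cre, rTA and transgene on U2af1(wt/wt) and received neither agent (3 libraries). Dosed and untreated adults therefore differed in genotype, pIpC and doxycycline at once, and what each contributed cannot be told apart.

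Total counts per library ran from 26588099 to 71251200. Levels are CPM, that is counts per 1000000 counts of a library total scaled by edgeR's trimmed mean (TMM). Kit, the receptor of the sort, stood at 539 ± 47.6 CPM (SD, n = 3) in the flox control and 573 ± 70.6 CPM (SD, n = 3) in untreated adults. Ly6a, which encodes Sca1, was not analysed here. The sort did not select for macrophages, yet Adgre1 (F4/80, a macrophage surface protein) was read at 25.7 ± 4.18 CPM (SD, n = 3) in the flox control and 9.84 ± 4.75 CPM (SD, n = 3) in untreated adults. Spic, a transcription factor of red pulp and bone marrow macrophages, was at 1.10 ± 0.414 CPM (SD, n = 3) in the flox control and 0.171 ± 0.0859 CPM (SD, n = 3) in untreated adults. In such bulk samples, fewer cells of a type and less RNA per cell cannot be told apart. The labels did not say that replicates came from separate animals, so p-values measure only the spread between these samples.

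The 3 C1q genes lie side by side on the minus strand of chromosome 4 (GRCm38), with C1qb at 136880129 to 136886187, C1qc at 136889804 to 136893065 and C1qa at 136895917 to 136898803. Gpnmb lies on the plus strand of chromosome 6, 49036546 to 49070929, and Cd5l on the plus strand of chromosome 3, 87357881 to 87371073. Promoter windows from RefSeq (GRCm38.p6), 250 bases before to 50 after each start, were found for 7 of the 10 genes, and not for C1qa, Siglec1 and Vcam1. The windows of C1qb and C1qc are shown because these neighbours moved together over the dosed libraries, that of Cd5l because it had the deepest loss in the homozygous deletion, and that of Gpnmb because it went the other way there. They are printed 5′ to 3′ on the gene's own strand. Capitals mark matches, on either strand, to GAGGAA (a PU.1-type ETS core), TGCTGA (the start of a Maf recognition element) or CATGTG (a Mitf-type E-box).
C1qb, chr4:136886151-136886450, minus strand: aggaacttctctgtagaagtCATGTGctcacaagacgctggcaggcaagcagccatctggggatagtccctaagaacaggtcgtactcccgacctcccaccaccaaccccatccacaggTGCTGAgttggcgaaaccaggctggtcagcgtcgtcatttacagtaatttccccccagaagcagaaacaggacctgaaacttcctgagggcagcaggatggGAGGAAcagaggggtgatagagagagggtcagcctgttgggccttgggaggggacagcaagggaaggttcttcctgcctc
C1qc, chr4:136892865-136893164, minus strand: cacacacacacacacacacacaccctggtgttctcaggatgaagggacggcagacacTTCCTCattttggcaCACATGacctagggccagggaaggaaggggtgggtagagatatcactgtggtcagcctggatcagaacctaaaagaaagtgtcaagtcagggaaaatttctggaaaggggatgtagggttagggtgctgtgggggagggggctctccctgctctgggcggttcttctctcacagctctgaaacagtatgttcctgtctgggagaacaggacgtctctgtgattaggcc
Cd5l, chr3:87357631-87357930, plus strand: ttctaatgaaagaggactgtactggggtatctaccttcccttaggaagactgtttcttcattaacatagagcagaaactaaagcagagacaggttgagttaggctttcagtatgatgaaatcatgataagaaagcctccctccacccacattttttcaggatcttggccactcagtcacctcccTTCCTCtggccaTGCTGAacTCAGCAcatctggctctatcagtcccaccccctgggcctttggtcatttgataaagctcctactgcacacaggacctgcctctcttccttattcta
Gpnmb, chr6:49036268-49036567, plus strand: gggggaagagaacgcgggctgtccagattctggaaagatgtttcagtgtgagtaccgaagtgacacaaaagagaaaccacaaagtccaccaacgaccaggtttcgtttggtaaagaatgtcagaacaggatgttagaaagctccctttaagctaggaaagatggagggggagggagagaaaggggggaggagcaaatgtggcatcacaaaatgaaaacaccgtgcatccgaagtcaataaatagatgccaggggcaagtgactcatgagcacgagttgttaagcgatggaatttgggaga
GAGGAA was matched in 5 of the 7 windows and in 28.3% of 32851 promoter windows of the same length. TGCTGA was matched in 3 of the 7 windows against 19.5% of all windows, and CATGTG in 3 against 14.2%. The interferon-stimulated response element was in none of the 7 and in 3.44% of all windows. A direct repeat of the liver X receptor type was in none of the 7 and in 0.0213% of all. In the windows shown, matches to different motifs did not overlap. The Gpnmb window held no match to any of these motifs, which says only that those letters are not in it.

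In dosed adults, 9 of the 10 genes were higher in every one of 14 libraries than in any of the 3 untreated libraries. Over all genes, 1.8% were higher in every dosed library and 2.02% were lower in every one. The genes had been chosen on this contrast, and nothing is read from the count.

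Gpnmb stood farthest apart. Its 3 untreated libraries read 0.273, 0.289 and 0.222 CPM. At 10000 ppm its libraries read 39.95, 51.2, 15.1 and 42.2 CPM, and at 1250 ppm 90.1, 26.1, 9.30 and 5.71 CPM. The 6 libraries at 2500 ppm ran from 12.98 to 107.0 CPM with a median of 36.4 CPM. Its mean over dosed libraries was 39.4 ± 30.8 CPM (SD, n = 14), 151-fold the untreated mean, and the lowest dosed library was still far above the highest untreated one.

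C1qb, one of the 3 chains of C1q, read 0.0839, 0.343 and 0.505 CPM in untreated adults. It read 3.99, 21.6, 1.45 and 8.43 CPM at 10000 ppm and 18.1, 8.53, 2.84 and 2.73 CPM at 1250 ppm. At 2500 ppm its lowest library was 2.28 CPM, the median 6.39 CPM and the highest 21.8 CPM. The 3 dose groups overlapped almost throughout, and each held libraries near the bottom and near the top of the range. The dosed mean was 27.4-fold the untreated mean for C1qb, 23.3-fold for C1qa and 22.0-fold for C1qc.

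Of the secreted proteins, Cd5l ran from 0.879 to 25.01 CPM over the 14 dosed libraries and from 0.0420 to 0.202 CPM in the untreated ones. Fcna ran from 0.366 to 20.7 CPM in dosed adults. In untreated adults it had 0, 5 and 4 counts, and the count of 0 allows up to 0.0630 CPM. The dosed means were 63.2-fold higher for Cd5l and 104-fold higher for Fcna. Reads of Fcna and of its antisense neighbour Fcnaos cannot be told apart, since the use of strand in counting was not given in the sources used here. The same holds for Vcam1 and Gm43109. Mertk is overlapped by Gm14011 and Gm23172, 1 on the other strand, for which the same holds, and 1 on its own. For the latter, strand would not separate the reads in any case.

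The receptors differed in how far they lay above the untreated level. Mertk, which drives engulfment in resident macrophages, had 2, 7 and 0 counts in the untreated libraries and 0.568 to 8.92 CPM in dosed ones, a 58.8-fold difference of means. The count of 0 allows up to 0.0606 CPM. Axl, its relative that is induced in inflamed tissue, was present in untreated adults at 1.68, 2.96 and 2.91 CPM and reached 3.17 to 33.0 CPM in dosed ones, a 5.79-fold difference. Siglec1, the sialic-acid-binding adhesion molecule CD169, ran from 0.0839 to 0.141 CPM in untreated and from 0.806 to 20.3 CPM in dosed libraries, a 59.8-fold difference. Axl thus had the smallest ratio of the 9 genes that were higher.

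Vcam1, the integrin ligand of macrophages, endothelium and stroma, ran the other way. It read 336, 352 and 445 CPM in untreated adults. It read 238, 234, 157 and 39.3 CPM at 10000 ppm and 97.3, 107, 160 and 122 CPM at 1250 ppm. At 2500 ppm it ran from 64.7 to 304 CPM with a median of 171 CPM. No dosed library reached the lowest untreated one, and the untreated mean was 2.36-fold the dosed mean.

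**Figure D1:**
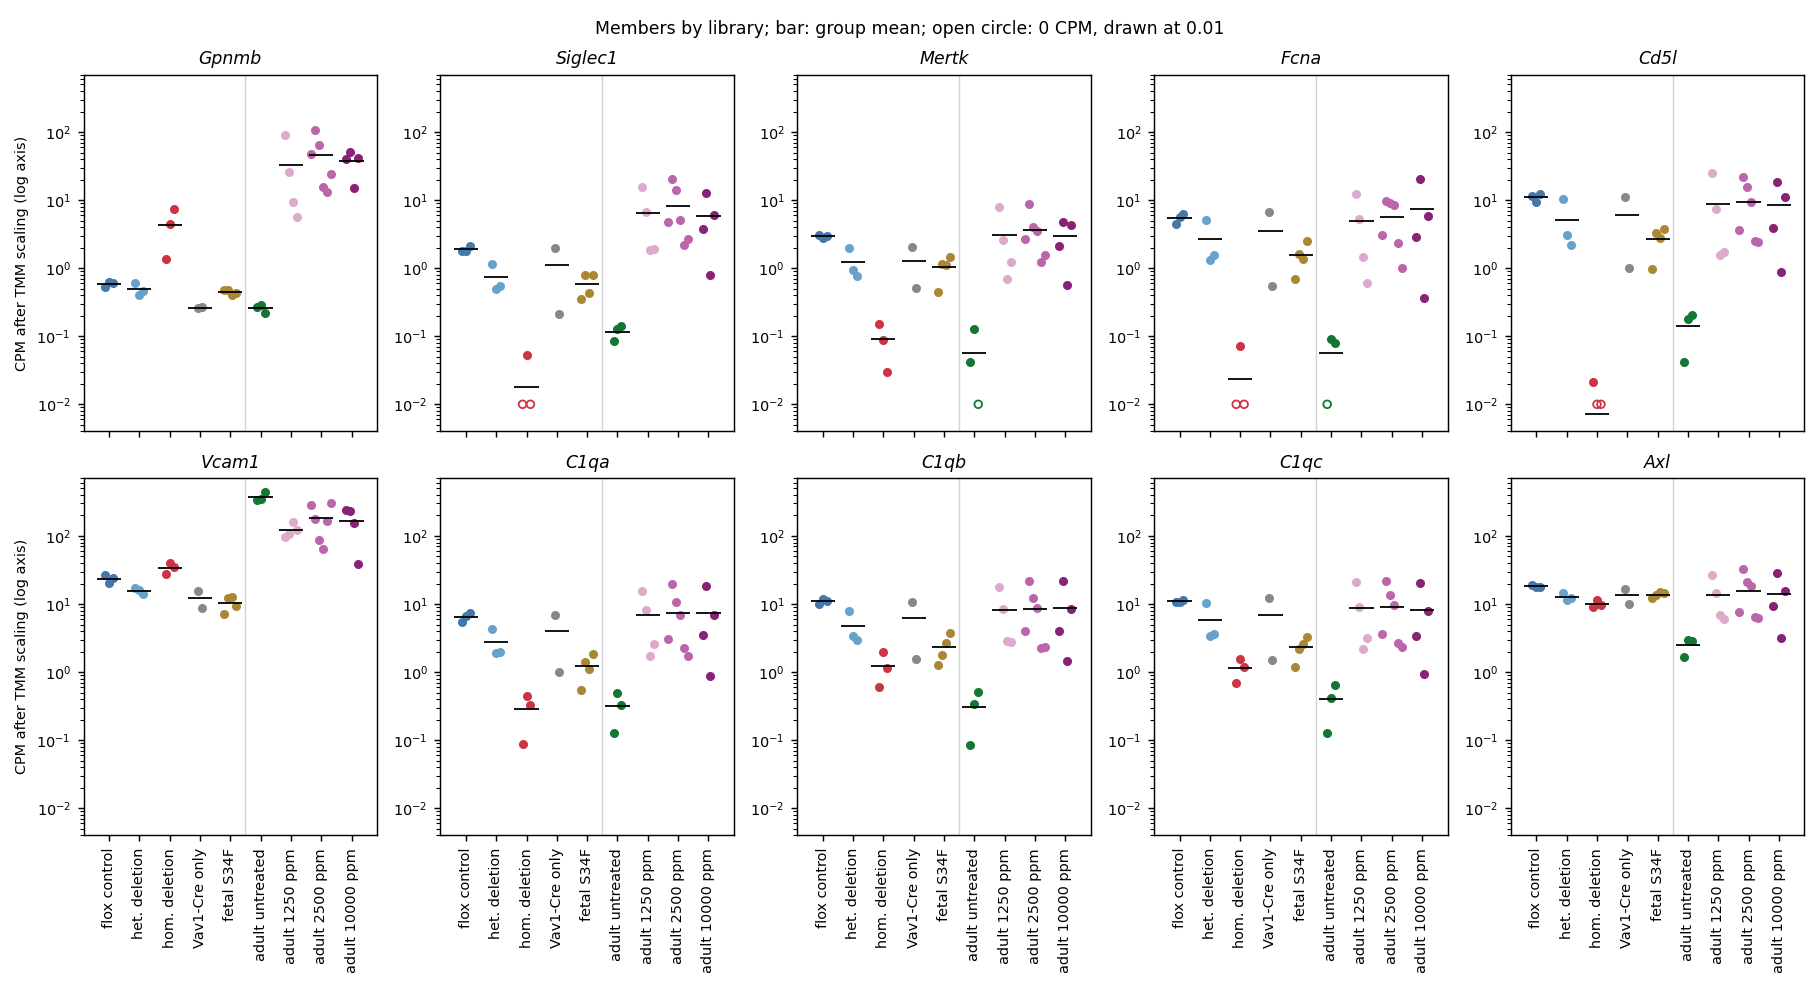
CPM after TMM scaling (log axis) of the 10 genes in all 32 libraries, grouped by genotype and dose. Each point is a library, bars are group means, and open circles are libraries with 0 counts, drawn at 0.01. In dosed adults 9 genes lie above the untreated libraries and Vcam1 lies below, while in the homozygous deletion Gpnmb and Vcam1 lie above the flox control and the other 8 genes lie below.

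Doxycycline dose did not separate the dosed libraries for these genes. By edgeR's quasi-likelihood test and Benjamini-Hochberg adjustment, none of the 10 genes passed an adjusted p of 0.05 between 10000 and 1250 ppm, where 18.1% of all genes did. None passed between 2500 and 1250 ppm (1.91% of all genes), between 10000 and 2500 ppm (0% of all genes) or in a trend with log2 dose (10.7% of all genes). In each of these comparisons 0 of the 10 had an unadjusted p under 0.05, and DESeq2 called 0 as well. The log2 fold change of 10000 over 1250 ppm ran from -0.16 (Siglec1, SE 0.82) to 0.59 (Fcna, SE 0.98). It was 0.18 ± 0.74 (SE) for Gpnmb, 0.13 ± 0.84 (SE) for C1qb and 0.46 ± 0.49 (SE) for Vcam1. These errors are wide, so dose differences of the size of 1 SE would not have been seen, and ones well above 1 SE could have been missed.

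The spread lay between libraries of 1 dose. C1qb ran over a 14.9-fold range at 10000 ppm, from replicate 3 at 1.45 CPM to replicate 2 at 21.6 CPM. Over the 14 dosed libraries, log2 CPM of C1qb went with that of C1qa (r = 0.99, rho = 0.97), Axl (r = 0.99, rho = 0.98), C1qc (r = 0.99, rho = 0.96), Cd5l (r = 0.98, rho = 0.93), Siglec1 (r = 0.96, rho = 0.93), Fcna (r = 0.94, rho = 0.95) and Mertk (r = 0.93, rho = 0.92). Gpnmb followed less closely (r = 0.75, rho = 0.80), and Vcam1 did not follow (r = -0.31, rho = -0.25). Without the 2 libraries farthest from the median of C1qb, r was 0.69 for Gpnmb and 0.89 to 0.99 for the other 7 genes that followed. These values describe 14 libraries that share their normalization and carry no test.

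**Figure D2:**
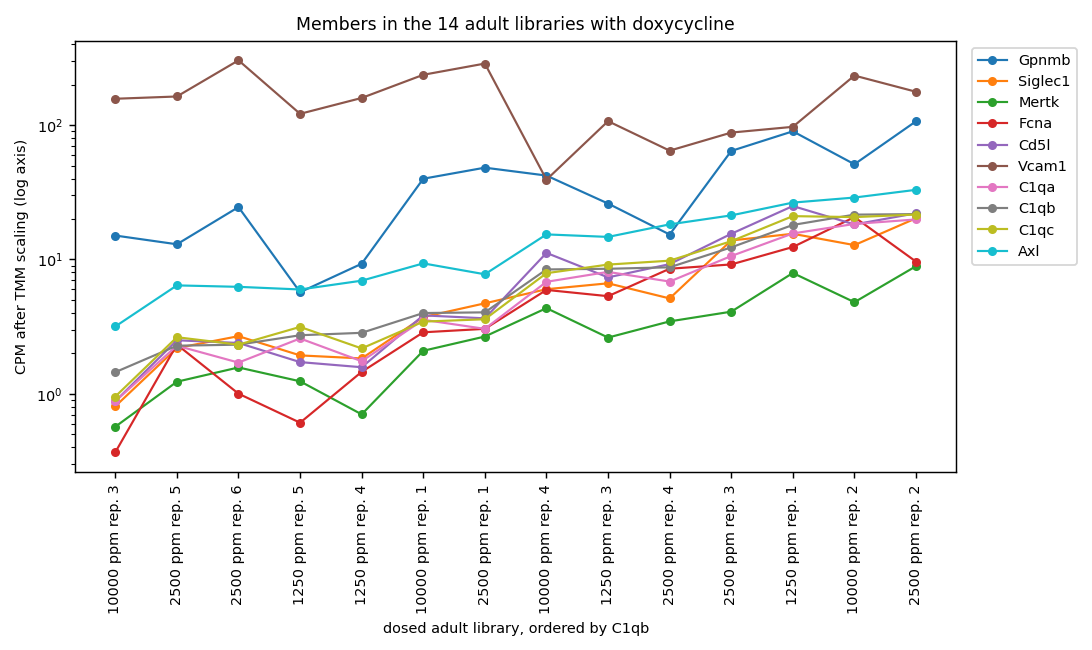
CPM after TMM scaling (log axis) of the 10 genes in the 14 dosed adult libraries, ordered from left to right by C1qb. Axl, Cd5l, Siglec1, Mertk, Fcna and the C1q genes climb together across doses, Gpnmb climbs less evenly, and Vcam1 does not follow.

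Summed over Siglec1, Mertk, Fcna, Cd5l and the 3 C1q genes, a group of 7 chosen after their values were seen, dosed libraries ran from 5.90 to 124 CPM and untreated ones from 0.504 to 1.90 CPM. The summed CPM of broader macrophage markers, which abundant genes carry, overlapped between the groups. The macrophage identity list (19 genes with a row, such as Csf1r, Adgre1 and Cd68) summed to 660 to 1329 CPM in dosed and 622 to 1051 CPM in untreated libraries. Gene by gene, its 17 tested genes had median log2 fold changes over untreated of 1.27, 1.26 and 0.73 at 10000, 2500 and 1250 ppm. All genes had 0.00, 0.00 and 0.01. In the same order the median was 4.65, 3.87 and 3.86 for B cell genes and 2.79, 0.70 and 0.61 for erythroid ones. It was 2.28, 1.46 and 0.01 for endothelial and stromal genes and 1.38, -0.04 and -1.41 for neutrophil genes. Monocyte genes had -0.09, 0.22 and -0.21. Of the 19 macrophage identity genes, 3 were higher in every dosed library than in any untreated one and 0 were lower. The 3, Cd68, Vsig4 and Hmox1, were named after their values were seen. Over all genes, 1.8% were higher in every dosed library and 2.02% were lower. The monocyte list summed to 1044 to 2955 CPM in dosed and 1804 to 2755 CPM in untreated ones, and the neutrophil list to 16060 to 64310 CPM and 32249 to 46656 CPM. Interferon-stimulated genes, which pIpC can induce, summed to 162 to 254 CPM in dosed and 212 to 284 CPM in untreated libraries. By dose they summed to 182 to 254 CPM at 10000 ppm, 171 to 201 CPM at 2500 ppm and 162 to 181 CPM at 1250 ppm. The ranges at 2500 and 1250 ppm lay below the untreated one. Their median log2 fold change over untreated was -0.25, -0.68 and -1.16 in the same order of doses. Hepatocyte genes, which mark liver cells, summed to at most 11.7 CPM in dosed and 3.25 CPM in untreated libraries, with Alb at 0 in all of them.

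Markers of B cells were also higher in dosed than in untreated adults, as were 9 of the 10 genes, all but Vcam1. The B cell list summed to 32.3 to 70.2 CPM in the 14 dosed libraries and to 18.5 to 25.7 CPM in the untreated ones, without overlap. All 4 of its genes with a row were higher in every dosed library. Pax5, a transcription factor that sets B cell identity, ran from 1.41 to 16.9 CPM in dosed and from 0.0202 to 0.650 CPM in untreated adults. Cd79a, a chain of the B cell receptor complex, ran from 1.32 to 16.6 CPM and from 0.242 to 0.546 CPM. Endothelial and stromal genes summed to 56.1 to 114 CPM at 10000 ppm, above the 38.1 to 51.7 CPM of untreated adults, but over all dosed libraries they ran from 34.2 to 114 CPM and overlapped them. Of their 8 genes 1 was higher in every dosed library, and of 7 erythroid genes 2 were, beside 1.8% of all genes. The part of these other cells in the levels of the 10 genes was not tested.

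In fetal liver, homozygous deletion moved all 10 genes, in opposite directions. By edgeR's quasi-likelihood test and Benjamini-Hochberg adjustment, 10 of 10 differed from the flox control, 2 higher and 8 lower, where 41% of all genes were called, 18.5% higher and 22.4% lower. Their median log2 fold change was -3.89, beside -0.02 over all genes tested. For each of the 10, the 3 libraries of either group did not overlap, as held for 22.8% (higher) and 25.1% (lower) of all genes.

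Cd5l showed the deepest loss. Its flox control libraries read 11.6, 9.50 and 12.2 CPM, and the 3 homozygous libraries held 1, 0 and 0 counts, where a count of 0 allows up to 0.0903 CPM. The ratio of pooled CPM, here from library totals without TMM scaling, was 1670 for flox control over homozygous deletion. Its 95% counting interval was 299 to 65988. Fcna read 4.43, 5.66 and 6.19 CPM in the flox control and had 0, 4 and 0 counts in the homozygous deletion, a ratio of 199 (interval 77.3 to 730). Siglec1 read 1.82, 1.81 and 2.08 CPM against 0, 3 and 0 counts, a ratio of 94.1 (interval 31.9 to 459). These exact binomial intervals cover counting error only, and each of the 3 genes was near the limit of detection after deletion.

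Mertk, the engulfment receptor, read 3.10, 2.80 and 2.93 CPM in the flox control and 0.151, 0.0885 and 0.0301 CPM in the homozygous deletion. By edgeR's quasi-likelihood test its log2 fold change was -4.95 ± 0.50 (SE), with a Benjamini-Hochberg adjusted p of 5.4e-05. Axl was retained to a larger extent, at 19.1, 18.1 and 17.6 CPM against 8.99, 11.4 and 9.70 CPM. Its log2 fold change was -0.88 ± 0.12 (SE; edgeR's quasi-likelihood test, Benjamini-Hochberg adjusted p = 0.00027). Of this receptor pair, Mertk was 31.0-fold lower and Axl 1.84-fold lower.

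The C1q genes fell as well. C1qb read 10.1, 11.8 and 11.0 CPM in the flox control and 0.605, 1.95 and 1.14 CPM in the homozygous deletion, a log2 fold change of -3.16 ± 0.44 (SE; edgeR's quasi-likelihood test, Benjamini-Hochberg adjusted p = 0.00033). C1qc fell by 3.29 ± 0.43 (SE) on the log2 scale, from 11.1 ± 0.402 CPM to 1.14 ± 0.425 CPM (SD, n = 3 each). C1qa fell by 4.49 ± 0.48 (SE), from 6.47 ± 0.882 CPM to 0.287 ± 0.182 CPM (SD, n = 3 each). A trace of C1q transcripts was thus still read in each homozygous library.

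Gpnmb rose. Its flox control libraries read 0.537, 0.635 and 0.605 CPM, and its homozygous libraries 1.38, 4.46 and 7.29 CPM, from 64, 252 and 242 counts. The homozygous libraries spread over a wide range, and the lowest was still above every control. The log2 fold change was 2.88 ± 0.51 (SE; edgeR's quasi-likelihood test, Benjamini-Hochberg adjusted p = 0.0014). Vcam1 rose by a smaller amount, from 26.4, 20.3 and 23.8 CPM to 27.2, 39.9 and 35.4 CPM. Its log2 fold change was 0.52 ± 0.14 (SE; edgeR's quasi-likelihood test, Benjamini-Hochberg adjusted p = 0.014). The Vcam1 call was lost without flox control replicate 4 (0.44) or without homozygous replicate 3 (0.43), with edgeR adjusted p = 0.054 and 0.057.

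**Figure D3:**
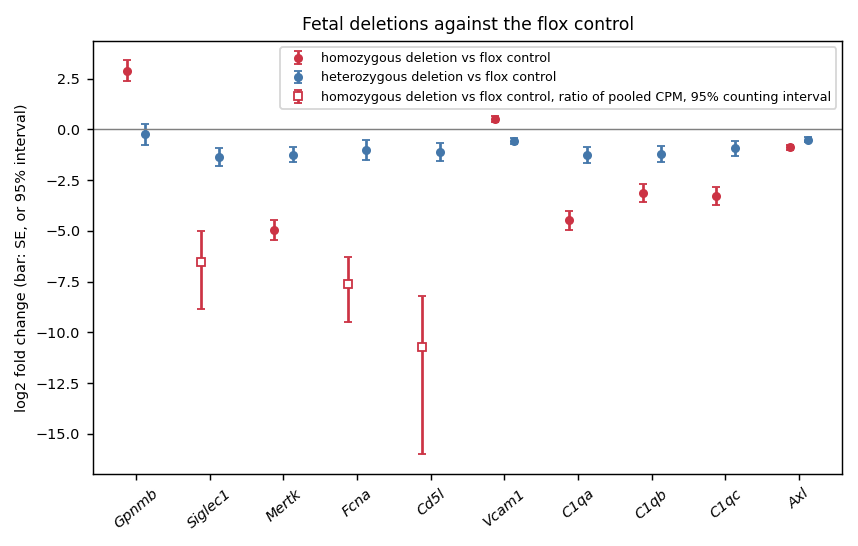
Log2 fold change of the 10 genes in both fetal deletions against the flox control, with SE from edgeR. For Cd5l, Siglec1 and Fcna in the homozygous deletion, squares show the ratio of pooled CPM, without TMM scaling, with its 95% counting interval. They were used since those libraries held at most 4 counts. Gpnmb and Vcam1 lie above 0 in the homozygous deletion and the other genes lie below.

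Heterozygous deletion gave no call among the 10 genes, by edgeR's quasi-likelihood test and Benjamini-Hochberg adjustment, where 0.0316% of all genes (4 genes) were called. At an unadjusted p under 0.05 there were 8 of the 10 and 1120 of 12678 genes, and DESeq2 called 2 of the 10, Vcam1 and Axl, and 0.931% of all genes. With no filter on low counts edgeR called 7 of the 10, Mertk, Cd5l, Vcam1, C1qa, C1qb, C1qc and Axl, and 1.02% of 22558 genes. Of the 10 genes, 7 were lower in every heterozygous library than in any flox control library, where 7.49% of all genes were. Their median log2 fold change was -1.07, beside 0.00 over all genes tested.

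Heterozygous libraries did not form a single level. C1qb read 7.91 CPM in replicate 3 and 3.34 and 2.98 CPM in replicates 4 and 5. Cd5l read 10.3, 3.11 and 2.17 CPM, and Fcna 5.18, 1.31 and 1.55 CPM, in the same order. Replicate 3 lay near the flox control for these genes, and replicates 4 and 5 lay between the flox control and the homozygous deletion. Without replicate 3, edgeR's quasi-likelihood test called 2 of the 10 genes, Cd5l (log2 fold change -2.05) and C1qc (-1.62), where 0.281% of all genes were called. Vcam1, by contrast, read 17.02, 16.3 and 13.97 CPM, with a log2 fold change of -0.57 ± 0.14 (SE) in the heterozygous deletion and 0.52 in the homozygous one.

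Homozygous against heterozygous libraries also gave 10 calls of 10 by edgeR's quasi-likelihood test and Benjamini-Hochberg adjustment, 2 higher (Gpnmb and Vcam1) and 8 lower, where 42.3% of all genes were called, 19.8% higher and 22.4% lower. This comparison shares the homozygous libraries with the previous one. Gpnmb was 8.75-fold higher and Vcam1 2.14-fold higher. C1qb was 3.84-fold lower and Mertk 13.01-fold lower, and the pooled ratio of Cd5l was 737 (95% counting interval 132 to 29132). Axl was 1.29-fold lower, with an adjusted p of 0.029 in the same edgeR test. Its call was lost without heterozygous replicate 3 or 5 or homozygous replicate 2 or 4, with an edgeR adjusted p of 0.054 to 0.11.

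Transcripts of hepatocytes, the liver cells that surround fetal progenitors, were also lower in the homozygous deletion, where Gpnmb and Vcam1 rose. The hepatocyte list (10 genes with a row) summed to 94.0, 607 and 387 CPM in the flox control, to 115, 43.2 and 45.8 CPM in heterozygous replicates 3, 4 and 5 and to 32.2, 17.6 and 10.6 CPM in the homozygous deletion. The sum of the 7 genes named above stood at 47.5, 49.0 and 53.3 CPM, at 41.1, 14.51 and 13.6 CPM and at 1.56, 4.14 and 2.68 CPM in the same libraries. Heterozygous replicate 3 was the high one of its group in both sums. Within the 3 flox control libraries, a 6.46-fold range of hepatocyte transcripts came with a 1.12-fold range of the 7 genes. Between groups, hepatocyte transcripts and genotype changed together, so their parts in these levels cannot be told apart. Alb, the leading hepatocyte transcript, was at 194 ± 141 CPM in the flox control and 6.17 ± 4.55 CPM in the homozygous deletion (SD, n = 3 each).

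With the mean log2 CPM of the hepatocyte list as a covariate, 5 of 10 genes were still called between homozygous deletion and flox control by edgeR's quasi-likelihood test and Benjamini-Hochberg adjustment, namely Siglec1, Mertk, Fcna, Cd5l and C1qa, all lower. The other 5 lost their call in that fit. Gpnmb had a log2 fold change of 1.74 (edgeR adjusted p = 0.42) and Vcam1 of 0.06 (adjusted p = 0.92). C1qb was at -2.39 (edgeR adjusted p = 0.087), C1qc at -2.50 (adjusted p = 0.067) and Axl at -0.88 (adjusted p = 0.051). Against the heterozygous deletion the same covariate left 8 calls, Gpnmb at 2.53 (edgeR adjusted p = 0.027) and Vcam1 at 0.86 (adjusted p = 0.0039) among them, without C1qb and Axl. The covariate itself differed between genotypes, and over all genes it left 1302 calls (10.3%) against the flox control in place of 5194, and 32.7% of genes called against the heterozygous deletion.

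**Figure D4:**
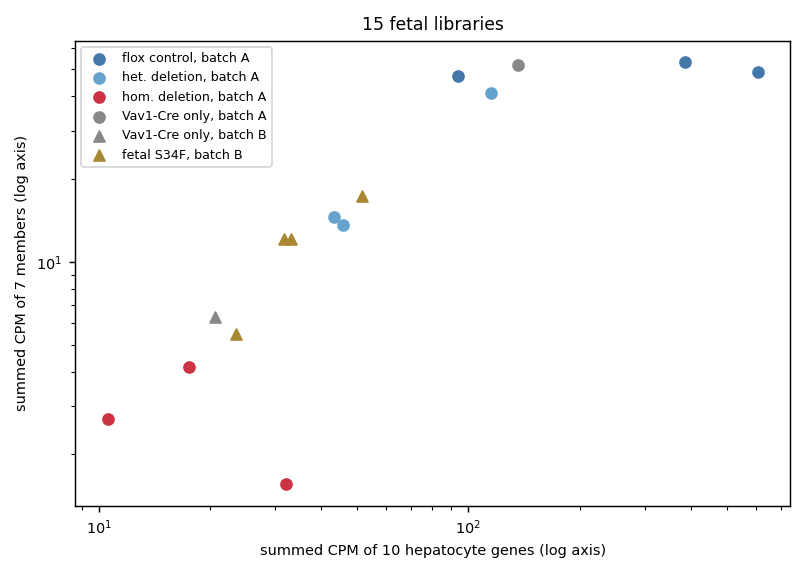
Summed CPM of Siglec1, Mertk, Fcna, Cd5l and the 3 C1q genes (vertical, log axis) against summed CPM of 10 hepatocyte genes (horizontal, log axis) in the 15 fetal libraries. Circles are batch A and triangles batch B. The 3 flox control libraries lie at 47.5 to 53.3 CPM over a wide range of hepatocyte transcripts, and the 3 homozygous libraries lie lowest, at 1.56 to 4.14 CPM.

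The control libraries with Vav1-Cre and no floxed allele differed, and with a single library in each batch, batch and library cannot be told apart. In batch A that library read 10.9 CPM for C1qb, 11.0 CPM for Cd5l and 16.7 CPM for Axl, close to the flox control. In batch B the other library read 1.56, 1.02 and 10.04 CPM for the same genes. Its sum over the 7 genes was 6.32 CPM beside 20.7 CPM of hepatocyte transcripts, against 51.7 and 136 CPM in batch A. Gpnmb read 0.256 and 0.270 CPM in them.

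The 4 S34F libraries could be set against the single batch B control only, so no test was made. Siglec1, Fcna, Axl and Gpnmb were higher in all 4 than in that control, where 26.5% of all genes were higher and 31.8% lower in every library. The other 6 genes overlapped it. Siglec1 read 0.358, 0.784, 0.432 and 0.807 CPM against 0.210 CPM, and Axl 12.1, 13.5, 14.8 and 14.6 CPM against 10.04 CPM. C1qb read 1.28, 1.76, 2.71 and 3.74 CPM, on either side of the control. Hepatocyte transcripts summed to 23.6 to 51.5 CPM in these 4 libraries and 20.7 CPM in the control, and their part in the result was not tested.

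Over all 9 groups, C1qb was highest in the flox control, at 11.0 ± 0.854 CPM (SD, n = 3). It was followed by the 10000 ppm (8.86 CPM), 2500 ppm (8.58 CPM) and 1250 ppm (8.04 CPM) groups, Vav1-Cre only (6.22 CPM), the heterozygous deletion (4.74 CPM), fetal S34F (2.37 CPM), the homozygous deletion (1.23 CPM) and untreated adults (0.311 CPM). Of the 8 steps between neighbours in this order, only the last, from the homozygous deletion to untreated adults, had no overlap of libraries. Fetal and adult groups differ in stage and tissue at once, and in any batch, so these are levels and not effects.

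Gpnmb had a different order, with the 3 dosed groups at the top (45.4, 37.1 and 32.8 CPM at 2500, 10000 and 1250 ppm) and the homozygous deletion next, at 4.38 ± 2.95 CPM (SD, n = 3). The other 5 groups lay between 0.261 and 0.592 CPM. Its only steps without overlap were from the homozygous deletion to the flox control and from fetal S34F to Vav1-Cre only. Vcam1 was highest in untreated adults, at 378 ± 59.0 CPM (SD, n = 3), then in the dosed groups (121 to 181 CPM), and lowest in fetal S34F, at 10.4 ± 2.66 CPM (SD, n = 4). For Axl, 7 of the 9 groups lay between 12.7 and 18.2 CPM, with the homozygous deletion at 10.02 CPM and untreated adults at 2.52 CPM below them.

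Per kilobase of exon, which allows genes to be compared, C1qb led in the flox control at 10.1 CPM per kb. C1qa (6.22), C1qc (5.73), Cd5l (5.47), Fcna (3.95), Axl (3.62) and Vcam1 (2.65) followed, and Mertk (0.678), Siglec1 (0.267) and Gpnmb (0.0909 CPM per kb) came last. In dosed adults Vcam1 led at 18.05 CPM per kb, and Gpnmb, at 6.05 CPM per kb, had moved to the level of C1qb (7.82), C1qa (7.01) and C1qc (4.52 CPM per kb). In untreated adults Vcam1, at 42.6 CPM per kb, stood apart from the other 9 genes, of which Axl was next at 0.50003 CPM per kb.

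The relation of Gpnmb to C1qb differed between some groups and overlapped between others. The ratio of their CPM was 0.0531 to 0.0550 in the flox control, 0.0773 to 0.157 in the heterozygous deletion and 2.29 to 6.37 in the homozygous deletion. It was 0.117 to 0.372 in fetal S34F and 0.0235 to 0.173 in Vav1-Cre only. In dosed adults it ran from 1.76 to 11.96 with a median of 4.99. The range in the homozygous deletion lay within that of dosed adults, although C1qb was low in the one and high in the other. In untreated adults the ratio ran from 0.440 to 3.25, resting on 11 to 16 counts of Gpnmb and 4 to 25 of C1qb.

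**Figure D5:**
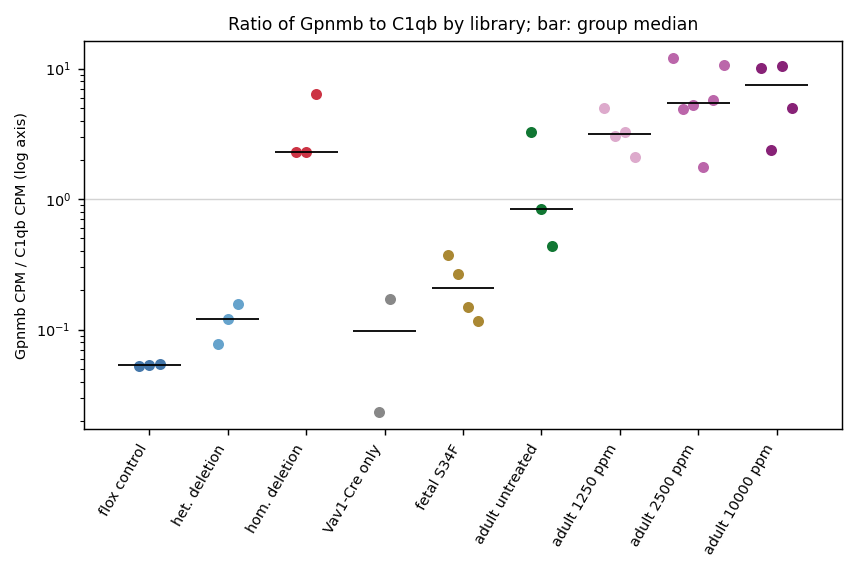
Ratio of Gpnmb to C1qb CPM (log axis) in each of the 32 libraries, with bars at the group median. The flox control libraries lie at 0.0531 to 0.0550, and the homozygous deletion (2.29 to 6.37) lies within the range of the 14 dosed adults (1.76 to 11.96).

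Among the C1q chains, the ratio of C1qc to C1qb CPM ran from 0.658 to 1.5 over all 32 libraries. It was 0.916 to 1.07 in the flox control, 1.02 to 1.29 in the heterozygous deletion, 0.791 to 1.14 in the homozygous deletion and 0.658 to 1.16 in dosed adults. In untreated adults it was 1.21 to 1.5, above every dosed and flox control library, from 6 to 32 counts of C1qc and 4 to 25 of C1qb. The ratio of C1qa to C1qb was 0.547 to 0.661 in the flox control and 0.143 to 0.289 in the homozygous deletion, where C1qa had 4, 25 and 11 counts. It was 0.608 to 1 in dosed adults. The ratio of Mertk to Siglec1, per kilobase of exon, was 2.31 to 2.81 in the flox control and 0.486 to 1.19 in dosed adults, where Mertk was the higher of the pair in 4 of 14 libraries. The dosed range lay below that of the flox control. The ratio of Siglec1 to C1qb was 0.153 to 0.189 in the flox control and 0.557 to 1.17 in dosed adults.

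Other genes of the same functions were followed in lists, which were chosen with earlier results of these data known and are given as counts by edgeR's quasi-likelihood test at an adjusted p of 0.05. The counts between homozygous deletion and flox control are to be read beside the 22.4% of all genes that were lower and the 18.5% that were higher. Of 17 macrophage identity genes tested between homozygous deletion and flox control, 14 were lower and 1 higher, with a median log2 fold change of -1.51 beside -0.02 for all genes. Csf1r, the receptor for macrophage colony-stimulating factor, went from 256 ± 25.1 to 28.0 ± 3.52 CPM, and Adgre1 from 25.7 ± 4.18 to 12.9 ± 3.37 CPM (SD, n = 3 each). Marco, a scavenger receptor, went from 10.03 ± 3.43 CPM to at most 0.0432 CPM, and Cd68, a lysosomal protein of phagocytes, from 19.3 ± 2.60 to 15.3 ± 0.278 CPM. The gene that rose was Slc40a1, the iron exporter ferroportin, from 31.3 ± 3.99 to 46.5 ± 9.37 CPM, a call that was lost without homozygous replicate 3 or 4. Csf1r is also made by progenitors of monocytes, and the monocyte list had 6 of 8 lower and 0 higher.

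Of 20 tested genes of efferocytosis, 13 were lower and 3 higher in the homozygous deletion, with a median of -0.85 on the log2 scale. Lrp1, an engulfment receptor, went from 192 ± 4.47 to 67.8 ± 5.64 CPM, and Pros1, which encodes the bridging protein S, from 19.1 ± 1.91 to 5.77 ± 1.41 CPM (SD, n = 3 each). Tyro3, the third receptor of the Axl and Mertk family, rose from 2.35 ± 0.528 to 3.86 ± 1.02 CPM. Itgav and Scarb1 rose by 0.25 each on the log2 scale. Without flox control replicate 4 or 5, or with the replicate number as a block, 1 of these 3 was still called. Of 9 complement genes, 6 were lower and 3 higher. C3ar1, the receptor for the C3a fragment, rose from 1.67 ± 0.00543 to 8.13 ± 3.97 CPM, and C3 and Cfp (properdin) rose as well.

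Of 16 lysosome and lipid-handling genes, 6 were lower and 2 higher, with a median of -0.08, and its share of higher genes was below the 18.5% of all genes. Those that rose were Cd63, a membrane protein of late endosomes, from 168 ± 42.0 to 351 ± 53.4 CPM, and Tfec, a relative of the transcription factor Mitf, of which 1 was still called without flox control replicate 5. Ctss, a protease of antigen-presenting cells, went from 19.9 ± 4.03 to 2.83 ± 0.349 CPM. Neutrophil granule genes moved upward, with 5 of 7 higher and 0 lower, and Ngp went from 58.7 ± 28.9 to 413 ± 144 CPM (SD, n = 3 each). Interferon-stimulated genes had 6 of 13 lower and 0 higher, B cell genes 4 of 4 lower, hepatocyte genes 9 of 10 lower, erythroid genes 3 of 7 lower and endothelial and stromal genes 3 of 7 lower, none of these 5 lists with a gene higher. The number of erythroid genes lower was 5 without flox control replicate 3 or with no filter on low counts. It was 1 with the replicate number as a block and 0 with the hepatocyte covariate. Without flox control replicate 3, 1 interferon-stimulated gene was called higher. Of 5 sorting markers tested, 2 were lower and 1 was higher, and the number higher ran from 0 to 2 over the alternatives. Kit, the gene of the sort, fell from 539 ± 47.6 to 283 ± 47.1 CPM (SD, n = 3 each). With the hepatocyte covariate the lower calls were 8 for macrophage identity, 7 for efferocytosis and 1 for complement, and no gene of the efferocytosis, complement or neutrophil lists was called higher. In the heterozygous deletion no gene of any of the 12 lists was called.

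Between 10000 and 1250 ppm, where none of the 10 genes passed, the efferocytosis list had 2 genes higher (Itgb3 and Abca1) and 3 lower of 20 tested, beside 7.53% of all genes higher and 10.6% lower. Itgb3, an integrin chain that binds bridged dying cells, had a log2 fold change of 1.23 ± 0.26 (SE), and Abca1, a cholesterol exporter, of 1.23 ± 0.32 (SE). Scarb1, a scavenger receptor for lipoproteins, stood at -0.39 ± 0.09, Pros1 at -0.81 ± 0.21 and Adgrb1 at -2.98 ± 0.82 (SE). Of the macrophage identity list 1 of 17 was called, Lyve1, higher at 10000 ppm. No complement, lysosome or monocyte gene was called there. At 10000 ppm the neutrophil list had 4 of 7 higher, the erythroid list 3 of 7 and the sorting markers 3 of 5 (Kit, Itgam and Ly6g), none with a gene lower. The interferon-stimulated list had 5 of 14 higher, Rsad2 among them at 2.14 ± 0.54 (SE) on the log2 scale, and Bst2 lower. Endothelial and stromal genes had 1 of 8 higher (Dcn), hepatocyte genes 1 of 3 (Apob) and B cell genes 0 of 4.

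The genes whose pattern was most like the mean log2 CPM of the 10 genes over the 17 adult libraries were Sdc3 (Pearson r = 0.98), Slco2b1, Epas1, Hmox1, Pltp, Lgmn, Gas6, Slc11a1, Cd36 and Slc37a2 (r = 0.93), of 9599 genes ranked. Hmox1 encodes the enzyme that degrades heme, Slc11a1 a metal transporter of phagosomes, Gas6 the bridging ligand of Axl and Mertk, Cd36 a scavenger receptor and Lgmn the lysosomal protease legumain. Over the 9 fetal libraries of batch A they were Slc46a3 (r = 0.995), Lgmn (r = 0.99), Cenpt, Snx1, Slc15a3, Sema6d, Rps6ka4, Asrgl1, Eif2d and Zdhhc4 (r = 0.98), of 9670 genes ranked. Lgmn was the gene in both sets of 10. The libraries share groups and normalization, so these values are a description.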

How the data were processed

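RNA sequencing libraries were made by the authors after depletion of ribosomal RNA and read as 2 x 150 bases, per the labels' protocols. Reads were mapped with HISAT2 2.1.0 to GRCm38, per the labels. What the authors deposited were raw counts per Ensembl gene, with no normalization. The counting tool, annotation release, use of strand and filter on genes were not given in the sources used here. That text also names batch effects between some fetal samples, so fetal genotypes were compared within batch A.

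Symbols, coordinates and exon lengths came from GENCODE M21, which held 27668 of the 27728 IDs. U2af1 itself was not analysed here. Genes were filtered with filterByExpr, scaled by TMM and tested with edgeR 4.0.16 (R 4.3.3), with 9 fetal libraries, 17 adult libraries or, for the dose trend, 14 dosed libraries in a fit. Adjusted p-values are Benjamini-Hochberg over all genes of a fit and were called under 0.05. DESeq2 1.42.0 was an alternative. The scripts were tested on simulated counts. Log2 CPM used a prior count of 2. No pair of replicates (46 pairs) was alike within sampling noise.

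The 10 genes and the lists were chosen with earlier results of these data known. Besides the 10 genes, those named were up to 3 called genes in each direction per list and comparison with the smallest adjusted p, 8 fixed markers, and the 10 genes of nearest pattern with a mean of at least 50 counts.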

Additional observations from a re-analysis of the deposited data

Results flagged for a closer look

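Mertk read 8.92 CPM in adult 2500 ppm replicate 2, while the nearest of the other 5 libraries of that group read 4.09 CPM. This was the 1 library that stood apart from its group by Dixon's test at the 95% level among 40 sets of libraries checked (10 genes in the 4 groups of 4 to 6 libraries), and chance alone gives such a flag in about 5% of sets. The same library had the highest Gpnmb (107.0 CPM), Siglec1 (20.3 CPM) and Axl (33.0 CPM) of all 14 dosed libraries.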

How the results depend on the processing

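Among heterozygous and flox control libraries, where 0 of the 10 genes were called, DESeq2 called 2, edgeR with no filter on low counts called 7, and leaving out each replicate gave 0 to 2, the 2 without heterozygous replicate 3. The count of 10 in homozygous against flox control became 5 with the hepatocyte covariate and ran from 9 to 10 over left-out replicates, and no other alternative moved it by more than 1 gene. In homozygous against heterozygous it was 9 to 10 over left-out replicates and 8 with the covariate. No fetal fold change of the 10 genes turned its direction under any alternative run, nor did any difference between dosed and untreated adults. Directions between doses were not followed over the alternatives. With a minimum mean of 50 counts, only 5 complement genes were tested in place of 9, and 2 were lower in place of 6. The cause of the other changes was not tested. With the replicate block, which takes the number in the title as a block, the counts were 10, 0 and 9 in the 3 fetal comparisons and 0 in each dose comparison and the trend, with Axl the gene lost (log2 fold change -0.31, edgeR adjusted p = 0.077). Of 18 same-numbered pairs, 6 had a correlation over 0.1, and the range was -0.31 to 0.76. Between 10000 and 2500 ppm, replicates 1, 2, 3 and 4 gave 0.61, 0.39, -0.31 and 0.76. Pairs with different numbers were not compared, so whether the numbers pair the samples was not settled. In dosed against untreated adults, 9 genes were higher in every library whichever library was left out. Nearest patterns, ranked without Vcam1 as an alternative added after seeing the data, began with the same genes, Sdc3 and Slc46a3. At most 4 counts per library limit Cd5l, Siglec1 and Fcna in the homozygous deletion.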
